A study of Mus musculus with 4 samples.

Results

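The costimulatory receptors of the TNF receptor superfamily were followed as 8 genes: Tnfrsf8 (CD30), Tnfrsf4 (OX40), Tnfrsf9 (4-1BB), Tnfrsf18 (GITR), Cd27, Tnfrsf25 (DR3), Tnfrsf14 (HVEM) and Tnfrsf1b (TNFR2). Every probe set that the platform annotation assigns to 1 of these genes alone was taken. This gave 11 probe sets of the 45037 tested, and 8 genes of the 18193 with such a probe set. The genes were selected on the difference of Tnfrsf8 between the groups compared here, so the differences of the 8 receptors are given as a description and no test is drawn from them.

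Transcripts were measured in lymph node CD4+CD25+ T-cells of C57BL/6 mice aged 6 to 12 weeks, in 2 samples of IL-10+ and 2 of IL-10- cells. Both groups came from mice injected 3 days earlier with the superagonistic CD28 antibody D665 (CD28SA), and both were cultured over night on antibodies to CD3 (2 µg/ml) and CD28 (5 µg/ml) with IL-2 (200 U/ml) before they were separated by their IL-10 secretion. Each sample was read on 1 Affymetrix array, and the groups were compared with limma over all probe sets with Benjamini-Hochberg adjustment. The cells were sorted by CD25 and not by a Foxp3 reporter, so activated conventional T-cells with CD25 are not set apart from regulatory T-cells (Tregs) in either group, and how many mice stand behind a sample is not stated.

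Some receptors of this kind, such as CD27 and HVEM, are present on resting T-cells, whereas CD30, OX40 and 4-1BB appear or increase when the T-cell receptor and CD28 are engaged, and Tregs carry OX40 and GITR at rest. Their ligands sit mostly on antigen presenting cells and on other activated lymphocytes. Once bound, the receptors gather TRAF adaptor proteins at their cytoplasmic tails and switch on NF-kB, which favours survival, division and cytokine production. DR3 differs in that its tail holds a death domain and binds the adaptor TRADD first, while HVEM also acts in the other direction, as a ligand for the inhibitory receptor BTLA.

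Values are variance-stabilized intensities read as log2, and each difference is IL-10+ minus IL-10-. A gene outside the 8 receptors is said to have risen or fallen when limma gave it an adjusted p below 0.05, with the sign read in IL-10+ cells. Il10 itself, by which the cells were separated, stood at 12.02 and 12.00 in IL-10+ cells, against 10.41 and 10.37 in IL-10- cells. The brightest probe sets of the T-cell genes Cd3e, Cd4, Il2ra and Foxp3 were read at 10.06 or above on all 4 arrays, with Foxp3 at 10.86 and 10.79 in IL-10+ and 11.55 and 11.55 in IL-10- cells. The dimmer probe set of Cd4 was at 9.86 and 9.91 in IL-10+ cells, against 6.97 and 6.67 in IL-10- cells, a difference of 3.07 where the brighter one gave 0.51, and the dimmer one of Il2ra rose by 0.38 where the brighter one differed by -0.22 without passing (dimmer probe sets outside the 8 receptors were picked out after their values were seen). Of 9 measured T-cell markers, 4 rose and 2 fell by their brightest probe sets (8.37% and 22.9% of all genes). Those that rose were Ctla4 (0.87), Cd28 (0.77), Cd4 (0.51) and Cd3g (0.41). The falls were those of Foxp3 (-0.72) and Ikzf2 (-0.55), and the dimmer probe sets of Ikzf2 differed by -0.51 and 0.55. The median probe set of an array was at 6.41 in both IL-10+ samples, against 6.35 and 6.31 in IL-10- samples. Of all probe sets 6133 rose and 7307 fell (4668 and 10076 after median centring of the arrays). The number of arrays limits the precision. Nothing in the labels says whether 2 samples of a group came from separate mice or sorts, so p-values rest on the spread among these arrays alone, and that spread may be technical. An exact two-sided permutation test of 2 arrays against 2 cannot go below p = 0.333. The labelling controls moved with the groups: of the 4 poly-A transcripts spiked into each sample, the 5' ends read higher on the IL-10+ arrays by a median of 1.22 (second series of probe sets), whereas their 3' ends differed by 0.04. The middle parts differed by 0.82. Control probe sets of the cells' own Gapdh differed by 0.88 at the 5' end, 0.33 in the middle and 0.02 at the 3' end. For beta-actin these differences were 1.12, 0.90 and 0.40.

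The 8 genes share more than their function. In the RefSeq annotation of GRCm38.p6, 7 of them lie on chromosome 4 and Cd27 lies on chromosome 6. Tnfrsf1b and Tnfrsf8 are next to each other with 0 protein-coding genes between them, and so are Tnfrsf4 and Tnfrsf18. Promoter windows of 250 bases before the annotated start were found for all 8 genes, 10 windows in all, since Tnfrsf9 and Tnfrsf25 have a pair of annotated starts each. Windows of 3 genes are printed here because their probe sets gave the largest positive differences among the 8 receptors, and 2 of these genes, Tnfrsf8 and Tnfrsf1b, are neighbours (RefSeq, GRCm38.p6, 5′ to 3′ on the strand of the gene). Capitals mark matches to the AP-1 motif TGANTCA on either strand. Of Tnfrsf9 only the window of the second start is printed, and its other window holds no match to this motif.
Tnfrsf8, chr4:145315165-145315414, minus strand: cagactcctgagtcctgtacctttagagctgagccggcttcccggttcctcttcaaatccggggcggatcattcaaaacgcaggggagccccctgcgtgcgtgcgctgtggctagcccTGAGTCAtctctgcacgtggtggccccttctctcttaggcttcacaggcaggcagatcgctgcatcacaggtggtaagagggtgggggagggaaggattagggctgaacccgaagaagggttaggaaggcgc
Tnfrsf9, second annotated start, chr4:150927749-150927998, plus strand: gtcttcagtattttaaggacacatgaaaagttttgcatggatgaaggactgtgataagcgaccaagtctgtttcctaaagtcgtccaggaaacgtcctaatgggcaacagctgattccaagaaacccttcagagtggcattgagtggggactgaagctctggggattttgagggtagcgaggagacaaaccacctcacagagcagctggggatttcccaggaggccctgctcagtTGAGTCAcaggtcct
Tnfrsf1b, chr4:145246871-145247120, minus strand: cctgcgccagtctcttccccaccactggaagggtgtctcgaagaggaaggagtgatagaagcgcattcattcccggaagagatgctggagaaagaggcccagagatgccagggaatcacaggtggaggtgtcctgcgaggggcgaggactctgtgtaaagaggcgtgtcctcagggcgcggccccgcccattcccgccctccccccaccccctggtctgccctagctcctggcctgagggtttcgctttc
The AP-1 motif was present in 2 of the 10 windows, that of Tnfrsf8, where it begins 132 bases before the start, and the second of Tnfrsf9, where it begins 15 bases before it. Of 32841 promoter windows of the same length, 6.75% held it. A loose NF-kB motif (GGG, any 5 bases, then CC, on either strand) was present in 7 of the 10 windows, against 45.8% of all windows. The Sp1 motif GGGCGG was present in 3 of 10, against 32.7%, and the NFAT core GGAAAA in 5 of 10, against 20.4%. Matches of the 4 motifs can overlap each other. They describe the letters of these windows and are not binding sites.

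CD30 showed the largest difference of the 8 receptors. The single probe set of Tnfrsf8, 1421649_at, was read at 9.27 and 9.35 on the IL-10+ arrays, against 7.13 and 6.77 on the IL-10- arrays. Both IL-10+ arrays lay far above both IL-10- arrays, with a gap of 2.14 between the nearest ones. Group means were 9.31 ± 0.06 in IL-10+ cells, against 6.95 ± 0.25 in IL-10- cells (SD, n = 2 each), and the difference of 2.36 (standard error 0.11) is 5.13-fold on the log2 scale. The difference stood in place 39 from the top among all 45037 probe sets, and in place 2 among the brightest probe sets of the 18193 genes. Across quantile normalization, median centring, changes of the variance prior and the removal of each array it ran from 2.18 to 2.54. The base of the deposited logs is not stated, and if they were natural logs the difference would be 3.40 in log2 units. None of the settings tried adjusts for the 5' differences of the control transcripts, which ran from 0.68 to 2.16 in the added ones (second series). The place of this probe set on the transcript was not analysed here, and the part of the 5' differences in its value was not tested.

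**Figure D1:**
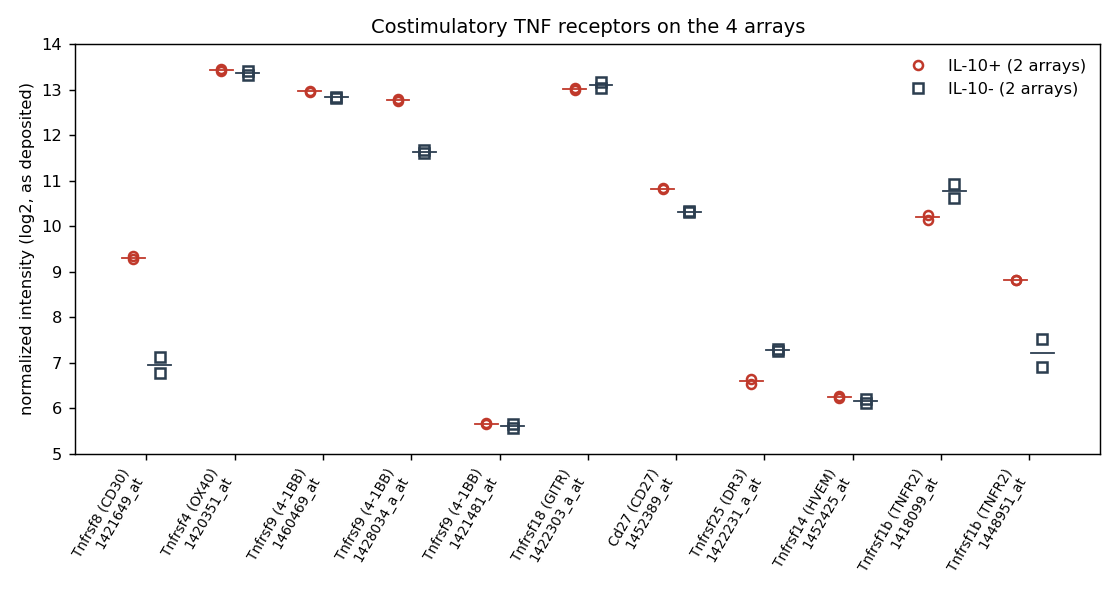
Deposited values (log2, vertical axis) of the 11 probe sets of the 8 receptors, with IL-10+ arrays as circles, IL-10- arrays as squares and bars at the mean of 2 arrays. CD30 sits at 9.27 and 9.35 in IL-10+ cells, against 7.13 and 6.77 in IL-10- cells, while OX40 and GITR lie near 13 in both groups.

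OX40, 4-1BB and GITR, the receptors best known as activation markers of Tregs, were read near the upper end of the scale in both groups. Tnfrsf4 (OX40, probe set 1420351_at) stood at 13.46 and 13.41 in IL-10+ and 13.33 and 13.41 in IL-10- cells. The groups overlapped, and the difference was 0.06 (standard error 0.07). After quantile normalization it was 0.24 and after median centring -0.01, so that its direction depends on the scaling. Tnfrsf18 (GITR, probe set 1422303_a_at) stood at 13.03 and 12.99 in IL-10+ and 13.03 and 13.16 in IL-10- cells. The nearest arrays of the groups almost touched, and the difference was -0.09 (standard error 0.07), 0.05 after quantile normalization and -0.16 after median centring. For both receptors a change of the normalization thus moved the value by more than its standard error, and neither direction is fixed by these arrays. At this brightness, a mean of at least 12, the median difference over 611 probe sets was -0.16.

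The 3 probe sets of Tnfrsf9, which encodes 4-1BB, a receptor that appears on T-cells after activation and marks Tregs that have met antigen, did not give 1 answer. The brightest, 1460469_at, was read at 12.96 and 12.96 in IL-10+ and 12.82 and 12.83 in IL-10- cells, a difference of 0.13 (standard error 0.06). Its groups did not overlap, but they lay close together. The second, 1428034_a_at, whose suffix marks probes shared by alternative transcripts of the gene, was read at 12.76 and 12.78 in IL-10+ and 11.61 and 11.66 in IL-10- cells. Its difference of 1.13 (standard error 0.06) is 2.19-fold on the log2 scale, and the gap between the groups was 1.09. The third, 1421481_at, was read between 5.56 and 5.67 on all 4 arrays, below the median of each array, and its groups overlapped. With the 3 probe sets averaged, Tnfrsf9 differed by 0.44. The brightest probe set moved to 0.25 after quantile normalization and to 0.06 after median centring, whereas 1428034_a_at stayed between 1.06 and 1.26. The place of these probe sets on the transcript was not analysed here. The part of the 5' differences of the control transcripts in their disagreement was not tested.

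CD27, which is present on naive T-cells and on most Tregs and binds CD70, was higher in IL-10+ cells. Cd27 (probe set 1452389_at) stood at 10.81 and 10.84 in IL-10+ and 10.32 and 10.31 in IL-10- cells. The 2 arrays of a group agreed within 0.03, far less than the 0.49 that separated the groups. Means were 10.82 ± 0.02 in IL-10+ cells, against 10.31 ± 0.01 in IL-10- cells (SD, n = 2 each), and the difference was 0.51 (standard error 0.06), or 1.42-fold on the log2 scale. It ran from 0.43 after median centring to 0.63 after quantile normalization.

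DR3 went the other way. Tnfrsf25 (probe set 1422231_a_at), the death domain receptor that costimulates T-cells and whose agonists expand Tregs in mice, stood at 6.53 and 6.64 in IL-10+ and 7.31 and 7.27 in IL-10- cells. Both IL-10+ arrays lay below both IL-10- arrays, by 0.62 or more. The difference was -0.70 (standard error 0.07), so the level was 1.62-fold higher in IL-10- cells on the log2 scale. The IL-10+ values of DR3 lie close to the median of 6.41 of those arrays. HVEM, which is read in Tnfrsf14 by 1452425_at, stood at 6.22 and 6.28 in IL-10+ and 6.21 and 6.11 in IL-10- cells. These values lie below the medians of the arrays, and the gap of 0.02 between the groups was smaller than the spread within either of them.

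TNFR2, the second receptor of TNF, gave opposite directions from its 2 probe sets. The brighter probe set of Tnfrsf1b, 1418099_at, was read at 10.13 and 10.25 in IL-10+ and 10.61 and 10.93 in IL-10- cells, a difference of -0.58 (standard error 0.11). The dimmer one, 1448951_at, was read at 8.82 and 8.80 in IL-10+ and 7.51 and 6.91 in IL-10- cells, a difference of 1.60 (standard error 0.17), or 3.04-fold on the log2 scale. The groups did not overlap in either probe set, and the IL-10- arrays spread more than the IL-10+ arrays in both. The annotation gives the same source sequence for the 2 probe sets. Their place on the transcript was not analysed here. The part that the 5' differences of the control transcripts have in this disagreement was not tested. Averaged, the 2 probe sets gave 0.51. Among the 9010 genes with several probe sets, 12% had probe sets called both higher and lower. A dimmer probe set was at least 2-fold higher (adjusted p under 0.001 from limma), with the brightest not called higher, in 3.45% of them.

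**Figure D2:**
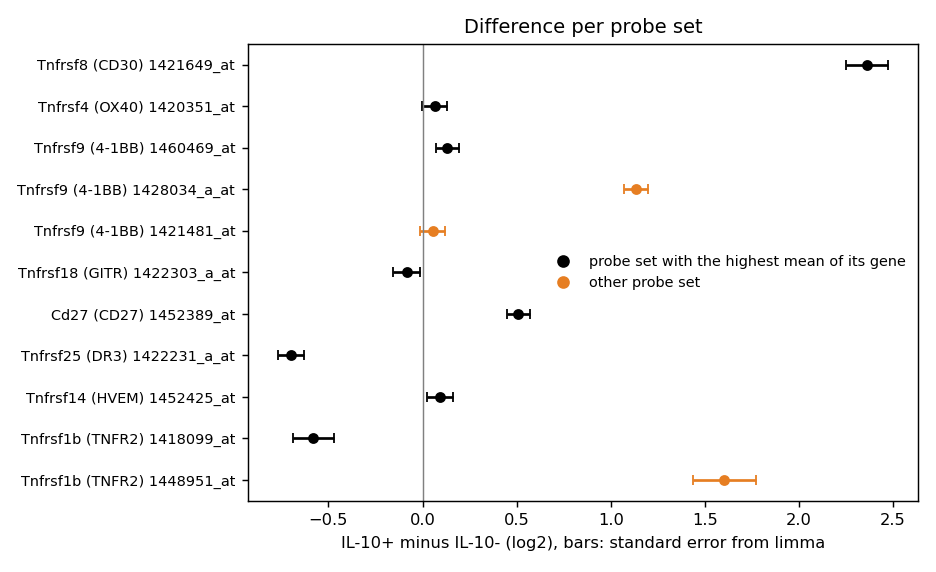
IL-10+ minus IL-10- group means in log2 (horizontal axis) of the 11 probe sets, with standard errors from limma. CD30 stands at 2.36, CD27 at 0.51 and DR3 at -0.70, the probe sets of TNFR2 stand at -0.58 and 1.60, and OX40 and GITR lie near 0, where their direction turns with quantile normalization or median centring.

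Of the 11 probe sets, 4 were called higher and 2 lower at an adjusted p under 0.05 from limma, against 13.6% higher and 16.2% lower among all probe sets. By the brightest probe set of each gene, 2 of the 8 receptors were called higher, Tnfrsf8 and Cd27, and 2 lower, Tnfrsf25 and Tnfrsf1b, against 8.37% and 22.9% of all genes. The stricter limits of the study's methods, 2-fold and an adjusted p below 0.001, left 3 of the 11 probe sets higher, those of Tnfrsf8, Tnfrsf9 (1428034_a_at) and Tnfrsf1b (1448951_at), and 0 lower, against 1.72% and 0.575% of all. The groups did not overlap in 6 probe sets with a higher and 3 with a lower IL-10+ level, against 32.5% and 30.5% of all probe sets. Since the receptors were chosen with this comparison in view, nothing is read from these counts. The median difference over the 8 brightest probe sets was 0.08, against -0.01 over all genes. In these bulk samples, fewer cells with a receptor and less of its RNA per cell cannot be told apart.

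The ligands were lower or little different, with the exception of the ligand of CD30. Of 10 measured genes for ligands and partners, 1 rose and 4 fell (8.37% and 22.9% of all genes). Tnfsf8, which encodes CD30 ligand, was dim but higher in IL-10+ cells, at 6.62 and 6.65 in IL-10+ and 6.41 and 6.26 in IL-10- cells (difference 0.30, adjusted p = 0.0172 from limma). This call was lost without IL-10+ replicate 1 (adjusted p = 0.0737 from limma) and without IL-10+ replicate 2 (0.105). The receptor CD30 and its ligand were thus read higher on the same arrays.

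Lymphotoxin alpha, a secreted ligand of TNFR2 and HVEM, gave the largest fall of the list. Lta was at 7.92 and 7.91 in IL-10+ and 8.62 and 8.68 in IL-10- cells (-0.73, adjusted p = 0.000164 from limma). Ltb, which anchors lymphotoxin alpha at the membrane in a complex that binds another receptor and is no ligand of these 8, was at 10.94 and 10.96 in IL-10+ and 11.65 and 11.70 in IL-10- cells (-0.72, adjusted p = 0.000164 from limma). Both IL-10+ arrays lay below both IL-10- arrays for each of these genes. Among the partners of HVEM, Btla, the inhibitory receptor, fell by 0.45 (adjusted p = 0.00127 from limma). Tnfsf14, the ligand LIGHT, fell by 0.31 (adjusted p = 0.0119 from limma, and 0.119 without IL-10+ replicate 2), although its dimmer probe set differed by 0.12 without passing. Cd160 differed by -0.11 without passing in the brightest of its 4 probe sets, and 1 of the dimmer ones fell by 0.46 (adjusted p = 0.00345 from limma).

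The remaining ligands gave values close to each other in the 2 groups. Tnfsf9, the ligand of 4-1BB, differed by 0.06 and Tnfsf4, that of OX40, by -0.02. Cd70, the ligand of CD27, differed by -0.05 and Tnf by -0.11. None of these 4 passed (adjusted p from 0.343 for Tnf to 0.862 for Tnfsf4 from limma). The ligands of GITR and DR3 were not analysed here.

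Btla, Ltb and Cd40 are also expressed by B cells, and markers of that lineage moved with the groups. Of 15 measured markers of B and plasma cells, 10 fell and 0 rose (22.9% and 8.37% of all genes), with a median difference of -0.73. Their log2 levels summed to between 107.7 and 108.1 per IL-10+ array, against 125.6 to 126.1 per IL-10- array. At an unadjusted p under 0.05 there were 11 lower and 0 higher. Over all 41 probe sets of these markers, 22 were called lower and 2 higher (16.2% and 13.6% of all probe sets). Both higher ones were dimmer probe sets of Xbp1 (0.44 and 0.35). Igha, the constant chain of IgA, was at 7.18 and 7.24 in IL-10+ and 12.58 and 12.74 in IL-10- cells, and Ms4a1 (CD20) at 5.82 and 5.67 in IL-10+ and 6.97 and 6.95 in IL-10- cells. The brightest probe sets of the defining B-cell factors Pax5 and Ebf1 lay between 5.84 and 6.21 on all 4 arrays and did not pass. Of the dimmer probe sets of Ebf1, 2 fell, one at 5.31 and 5.62 in IL-10+ and 6.03 and 6.06 in IL-10- cells (-0.58, adjusted p = 0.00395 from limma) and one at 5.41 and 5.44 in IL-10+ and 6.13 and 5.98 in IL-10- cells (-0.63, adjusted p = 0.00059 from limma). The part of B cells in the falls of Btla, Ltb and Cd40 was not tested. CD30 and CD27 can also be carried by B-lineage cells, and the part of such cells in the differences of these receptors was not tested. Of the other lists, NK cell markers had 0 of 5 higher (also at an unadjusted p under 0.05) and 2 lower, macrophage and monocyte markers 3 of 8 higher and 1 lower, dendritic cell markers 1 of 6 higher and 1 lower, CD8 T-cell markers 0 of 2 higher (0 at an unadjusted p) and 1 lower, and granulocyte and mast cell markers 1 of 8 higher and 1 lower. Among all genes, 8.37% were called higher and 22.9% lower, and with so few markers nothing is read from these counts.

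The genes of the adaptor list, which also holds adaptors of other receptors, fell or did not pass by their brightest probe sets. Over all 24 probe sets of the list, 8 were called lower and 3 higher (16.2% and 13.6% of all probe sets). Of 11 measured adaptor genes 5 fell and 0 rose (22.9% and 8.37% of all genes). At an unadjusted p under 0.05 from limma 6 were lower and 0 higher. Siva1, whose product was first found by its binding to the tail of CD27 in human cells, was at 8.84 and 8.87 in IL-10+ and 9.92 and 10.12 in IL-10- cells (-1.17, adjusted p = 6.55e-05 from limma). All 4 probe sets of Siva1 were lower, by 0.74 or more. CD27 and this partner of its tail thus differed in opposite directions. Tradd, the first adaptor of DR3, was at 9.18 and 9.09 in IL-10+ and 9.57 and 9.57 in IL-10- cells (-0.43, adjusted p = 0.00196 from limma) in its brightest probe set, while the 2 dimmer ones differed by -0.05 and 0.27 without passing (adjusted p = 0.648 and 0.0625 from limma). Traf3ip2 (-0.49), best known as an adaptor of the IL-17 receptor, and Traf6 (-0.55), which serves CD40 and interleukin receptors, also fell by their brightest probe sets. The last of the 5 was Traf5 (-0.33, lost without IL-10+ replicate 2, adjusted p = 0.0890 from limma), an adaptor of CD27, CD30 and OX40.

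Traf2, which encodes the adaptor most widely used by these receptors, stood at 8.75 and 8.78 in IL-10+ and 8.86 and 8.82 in IL-10- cells and differed by -0.07 (standard error 0.06). Traf1, a partner of TRAF2 that is itself induced by NF-kB, was picked out after its values were seen, because its 2 probe sets part like those of 4-1BB. The brighter, 1423602_at, was at 9.87 and 9.84 in IL-10+ and 9.97 and 10.03 in IL-10- cells (-0.14, adjusted p = 0.142 from limma, and -0.22 with 0.0388 after median centring). The other, 1445452_at, was at 9.86 and 9.87 in IL-10+ and 8.67 and 8.81 in IL-10- cells (1.13, adjusted p = 4.20e-05 from limma). For Traf6 the brightest probe set fell and 2 of the 4 others rose, by 0.41 and 0.48. The place of the probe sets of Traf1 and Traf6 on their transcripts was not analysed here. The part of the 5' differences of the control transcripts in their values was not tested. When the probe sets of each gene were averaged, 1 adaptor rose and 3 fell. Without IL-10- replicate 4, 1 adaptor (Birc3, adjusted p = 0.0402 from limma) rose in place of 0.

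Of 20 measured genes of the NF-kB pathway, on which these receptors converge, 8 fell and 1 rose by their brightest probe sets (22.9% and 8.37% of all genes). Rel, the c-Rel subunit needed for Treg development, was at 7.78 and 7.77 in IL-10+ and 7.28 and 7.38 in IL-10- cells (0.44, adjusted p = 0.00179 from limma). The largest fall was in Bcl3, an atypical IkB protein that pairs with p50 and p52, with 9.61 and 9.62 in IL-10+ and 10.59 and 10.61 in IL-10- cells (-0.98, adjusted p = 4.20e-05 from limma). Relb, the partner of p52 in the alternative pathway, fell by 0.60 and Nfkbie, the inhibitor IkB epsilon, by 0.82. Bcl3 and Relb have 1 probe set each, and both of Nfkbie were lower. The subunit gene Nfkb2 differed by 0.01 without passing in its brighter probe set and fell in the dimmer one (-0.60). The subunit Rel thus rose while Relb and Rela fell (-0.34 for Rela, lost without IL-10+ replicate 1, adjusted p = 0.0518 from limma).

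Other genes of the pathway were read by probe sets that part. Ikbkb, the kinase IKK beta, fell by 0.88 in its brightest probe set and rose by 0.51 and 0.89 in 2 dimmer ones. Tnfaip3, the inhibitor A20, fell by 0.32 in the brighter probe set (lost without IL-10+ replicate 2, adjusted p = 0.0739 from limma) and rose by 0.85 in the dimmer one. Cyld, Ikbkg and Map3k7 also had probe sets called in opposite directions. Thus 5 of 13 pathway genes with several probe sets did, against 12% of all 9010 such genes. These shares are not adjusted for the number of probe sets of a gene. These 5 were named for this after their values were seen. The part of the 5' differences of the control transcripts in their opposite calls was not tested. With the probe sets of a gene averaged, 4 pathway genes rose and 7 fell, and without IL-10- replicate 4, 2 rose in place of 1. Whether NF-kB signalling as a whole differed cannot be read from these transcripts.

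**Figure D3:**
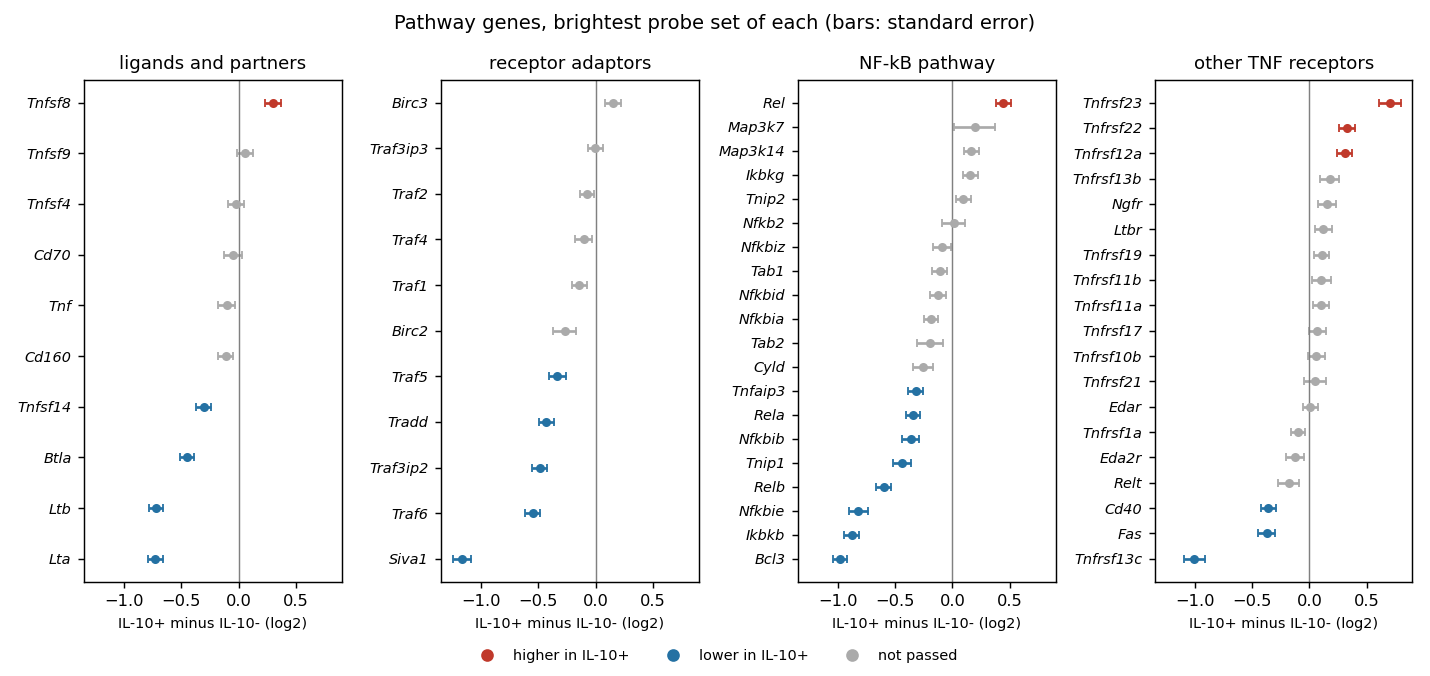
IL-10+ minus IL-10- group means in log2 (horizontal axes) of the brightest probe set of each ligand or partner, adaptor, NF-kB pathway gene and other TNF receptor, with standard errors from limma and colour by the call. The calls split into 1 higher and 4 lower, 0 and 5, 1 and 8, and 3 and 3 (8.37% higher and 22.9% lower over all genes). Siva1 at -1.17 lies lowest.

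**Figure D4:**
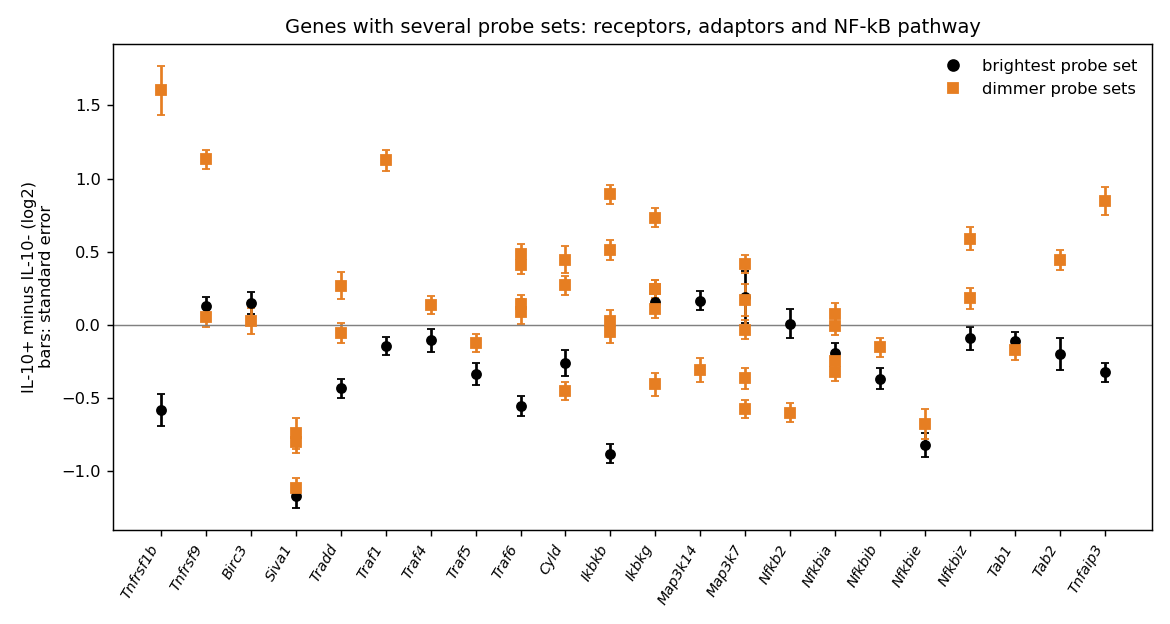
IL-10+ minus IL-10- group means in log2 (vertical axis) of all probe sets of those receptors, adaptors and NF-kB genes that have several, brightest in black and dimmer in orange, with standard errors from limma. The probe sets of Tnfrsf1b stand at -0.58 and 1.60 and those of Traf1 at -0.14 and 1.13, while all 4 of Siva1 lie below 0.

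The other receptors of the superfamily were mostly dim, with as many called higher as lower. Of 19 measured genes, 3 rose and 3 fell (8.37% and 22.9% of all genes), with a median difference of 0.07. The higher ones were Tnfrsf23 and Tnfrsf22, decoy receptors for TRAIL in the mouse, by 0.70 and 0.33, and Tnfrsf12a (Fn14, the TWEAK receptor), by 0.31. Of the 2 dimmer probe sets of Tnfrsf22, one rose by 0.45 and one differed by -0.15 without passing. Tnfrsf22 lost its call without IL-10+ replicate 1 (adjusted p = 0.104 from limma) and Tnfrsf12a without IL-10+ replicate 1 (0.0554) or 2 (0.0710). The count of 3 became 5 without IL-10- replicate 3 and 1 without IL-10+ replicate 1. Tnfrsf23 was at 7.19 and 7.08 in IL-10+ and 6.56 and 6.31 in IL-10- cells.

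The lower ones were Tnfrsf13c, the BAFF receptor of B cells (adjusted p = 0.000198 from limma), Fas, the death receptor CD95 (-0.37), and Cd40, the B-cell and myeloid counterpart of these receptors (-0.36, lost without IL-10+ replicate 1, adjusted p = 0.0579 from limma). The dimmer probe sets of Cd40 were called lower as well (-0.76 and -0.26, adjusted p = 0.000297 and 0.0247 from limma). Tnfrsf13c was at 6.33 and 6.22 in IL-10+ and 7.40 and 7.16 in IL-10- cells and moved with the B-cell markers above. Fas was at 7.51 and 7.52 in IL-10+ and 7.97 and 7.81 in IL-10- cells. The first receptor of TNF, Tnfrsf1a, differed by -0.10 and did not pass. Among the brightest probe sets of the 19 genes, the largest positive difference was that of Tnfrsf23 at 0.70.

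The genes whose brightest probe sets came closest to that of Tnfrsf8 over the 4 arrays, by the Euclidean distance after each was centred on its own mean, were Rab27a, Cap1, Pim1, Anp32a and Ppp4c, out of 18185 genes searched. The distances were 0.17 for Rab27a, a GTPase that docks secretory granules, 0.20 for Cap1, an actin regulator, and 0.28 for Pim1, a kinase induced by cytokines. For Anp32a, a nuclear phosphoprotein, the distance was 0.33, and for Ppp4c, the catalytic subunit of protein phosphatase 4, it was 0.36. Rab27a was at 9.61 and 9.66 in IL-10+ and 7.59 and 7.29 in IL-10- cells. With 4 arrays in 2 groups, the likeness says little more than that the differences are of one size (from 2.03 for Ppp4c to 2.48 for Cap1).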

How the data were processed

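The 4 samples were grouped by the cell type in their labels into IL-10+ (2) and IL-10- (2). Per the study's methods, the authors extracted RNA with TRIZOL, hybridized it to Affymetrix arrays and normalized the intensities by variance stabilization with Bioconductor packages. The summary of probes and the versions are not given in the sources used here. The deposited values, 1 per probe set and array, were read as log2, although a legend of the study speaks of natural logs of fold changes and the base is not stated.

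After 64 control probe sets were set aside, 45037 were compared with limma 3.58.1 in R 4.3.3 (lmFit, eBayes, two-sided, Benjamini-Hochberg, adjusted p under 0.05), with 5.44 prior and 2 residual degrees of freedom and no covariate. The step was tested on simulated data, where 49% of 100 changes of 0.5 (log2) and 100% of 100 changes of 1 were recovered. Of the unchanged probe sets 4 were called. A gene that did not pass may thus still differ by about 0.5. Gene names came from the platform annotation (34958 probe sets name 1 gene, 932 several and 9211 are not listed), and the 68 receptor and pathway genes matched RefSeq with 0 symbols changed. A gene was represented by its brightest probe set, the one with the highest mean over the arrays. Motifs were searched with Python 3.11.15 and figures drawn with matplotlib 3.10.9.

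The receptors, the 4 pathway lists, the 7 marker lists and the tests were chosen with earlier results of these data known. Named were all probe sets of the receptors, their ligands, up to 4 passing genes per direction and list whose groups did not overlap, and the 5 genes nearest to Tnfrsf8. Other genes, among them Traf2, Traf5, Rela and Tnfaip3, were named outside this rule. Alternatives were natural logs, quantile normalization, median centring, a filter on dim probe sets (below the median), a prior with a trend or a robust one, leaving out each array, averaged probe sets per gene, no probe sets with suffix x or s, and the threshold of the methods. Some genes of the pathway are not reported here.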

Additional observations from a re-analysis of the deposited data

How the results depend on the processing

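Of the 11 probe sets of the receptors, all kept the side of the threshold they had under median centring, a trend or robust prior and the removal of each array. Quantile normalization added Tnfrsf4 (0.24) and the brightest of Tnfrsf9 (0.25) to those called higher, which made 4 receptor genes higher in place of 2, and 1 adaptor higher in place of 0. The filter on dim probe sets left out Tnfrsf14 and the dimmest of Tnfrsf9. When all probe sets of a gene were averaged, 4 receptor genes were higher and 1 lower, 4 NF-kB genes and 1 adaptor were higher, and 3 adaptors were lower. At 2-fold and an adjusted p under 0.001, 1 receptor gene was higher and 0 lower, and 0 of the 11 probe sets were lower. At that threshold 0 ligands or partners were higher and 0 lower, 1 adaptor was lower, 0 NF-kB genes were higher and 0 lower, and 0 other TNF receptors were higher and 1 lower. With 1 array left out, 1 to 2 NF-kB genes, 0 to 1 ligands, 0 to 1 adaptors and 1 to 5 other TNF receptors were higher. The causes were not tested. No paired analysis was possible because the replicate numbers of the labels differ between the groups.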
